A study of Mus musculus with 282 samples.

Results

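The mitochondrial genome encodes 7 subunits of complex I and 3 subunits of complex IV, and the transcripts of these 10 genes were followed through single mouse granulocyte-monocyte progenitors (GMPs). The members were taken by name: mt-Nd1 (ENSMUSG00000064341), mt-Nd2 (ENSMUSG00000064345), mt-Nd3 (ENSMUSG00000064360), mt-Nd4l (ENSMUSG00000065947), mt-Nd4 (ENSMUSG00000064363), mt-Nd5 (ENSMUSG00000064367), mt-Nd6 (ENSMUSG00000064368), mt-Co1 (ENSMUSG00000064351), mt-Co2 (ENSMUSG00000064354) and mt-Co3 (ENSMUSG00000064358). They are 10 of the 55450 genes in the count tables. GMPs are bone marrow progenitors that give rise to neutrophils and monocytes. The cells came from male and female mice aged 12 to 19 weeks, homozygous for GFP-p65 (the p65 subunit of NF-kB fused to a fluorescent protein) and heterozygous for H2BmCherry (a fluorescent histone), and both alleles were carried by every cell, controls included. They were kept in culture for 8 h under a confocal microscope, picked by micromanipulator and sequenced 1 cell per library. The authors' deposited cell tables assign each cell a stimulus (TNF, a cytokine that activates NF-kB, or blank, the control), a response class (oscillatory, transient, sustained, non-responsive, outlier or unclear) and a cell cycle phase. They list 238 of the 282 samples, of which 178 were TNF cells and 60 were blank cells. A 1-plate experiment gave 67 of these cells, and the 2 plates of a second experiment, Plate1 and Plate2, gave 83 and 88. The sources used here do not give the dose of TNF, the number of mice or the way classes and phases were assigned.

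Complex I (NADH dehydrogenase) takes electrons from NADH at the start of the respiratory chain, and complex IV (cytochrome c oxidase) passes them to oxygen at its end. Both pump protons across the inner mitochondrial membrane, and both are assembled from a core encoded by the mitochondrial genome and many subunits encoded in the nucleus. The mitochondrial genes are read as long transcripts that are cut at the transfer RNAs lying between most of them, so the level of each messenger RNA depends on its stability as well as on transcription.

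Read totals fell into 2 classes. Over all 238 cells, 6 members collected between 30377 reads (mt-Nd6) and 387674 reads (mt-Nd1), while the other 4 collected 396 (mt-Nd3), 4 (mt-Co3), 1 (mt-Co2) and 0 (mt-Nd4l). Of 337847434 gene reads, mt-Nd4l therefore had none, and a count of 0 allows at most 0.00888 CPM. CPM here is a gene's reads per 1000000 gene reads of a cell or of a sum of cells. A read of mt-Co3 was seen in 2 cells, of mt-Co2 in 1 cell and of mt-Nd3 in 158 cells. Gene lengths were not used here, so these totals describe how many reads were counted and do not rank the transcripts. In the RefSeq gene table (assembly GRCm38.p6) the 4 members with few or no reads lie side by side between mt-Co1 and mt-Nd4, in the order mt-Co2, mt-Co3, mt-Nd3 and mt-Nd4l, with the 2 ATP synthase genes, not analysed here, between mt-Co2 and mt-Co3. The members on both sides of this stretch were counted in nearly every cell: mt-Co1 in 238 cells and mt-Nd4 in 236. mt-Co2, which carries the copper centre that accepts electrons from cytochrome c, and mt-Co3, the core subunit without a metal centre, are both part of every assembled complex IV. Their counts are uncertain as measures of the transcripts, because the nuclear genome can hold near-identical copies of mitochondrial DNA and the sources used here do not say how reads that fit several places were handled. Whether copies, the annotation or the transcripts themselves move with the low counts was not tested.

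**Figure D1:**
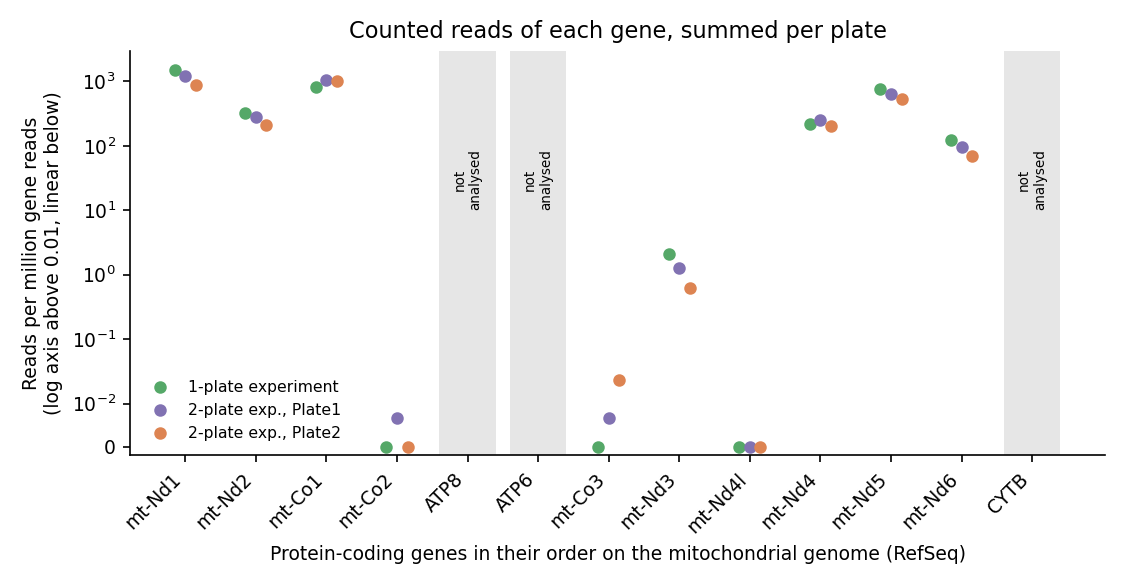
CPM of each member, summed over the listed cells of each plate (1 point per plate), with genes in their order on the mitochondrial genome; grey columns are genes not analysed. The axis is logarithmic above 0.01 and linear below. mt-Co2, mt-Co3 and mt-Nd4l lie at or near 0 on all 3 plates and mt-Nd3 between 0.625 and 2.08, while the other 6 members lie at 69.3 or more.

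Gene reads per cell ran from 182301 to 3380416, with a median of 1339522, and cells had 3672 to 10922 detected genes (at least 1 read). The spike-in share of reads was 0.169% for the 1-plate experiment and 1.62% for the other, and the 2 experiments were sequenced on different flow cells, per the labels. Fewer than 8000 genes were detected in 28 cells, and 26 of these were on Plate2 of the 2-plate experiment. Identifiers could not be matched to gene names, so the GMP label was not checked against marker genes.

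Together the 10 members held a median of 0.346% of a cell's gene reads (lowest 0.00815%, highest 1.44%, 238 cells). The median was 0.376% in the 1-plate experiment (0.0236% to 0.754%, 67 cells). It was 0.358% on Plate1 of the 2-plate experiment (0.00815% to 0.632%, 83 cells) and 0.279% on its Plate2 (0.00842% to 1.44%, 88 cells). The ranges of the 3 plates overlapped widely, and Plate2 held the highest cell as well as the lowest median. The relative spread between cells was also widest there: the coefficient of variation was 63.7% on Plate2 against 28.8% and 24.7% on the other plates, where counting error alone would give 1.42% to 1.85%. Stimulus did not order the medians the same way on every plate. TNF and blank cells had medians of 0.375% and 0.403% in the 1-plate experiment (51 and 16 cells). They had 0.359% and 0.351% on Plate1 (59 and 24 cells), and 0.294% and 0.249% on Plate2 (68 and 20 cells). A share is relative, so less RNA of the members and more RNA of other genes in the same cell cannot be told apart.

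**Figure D2:**
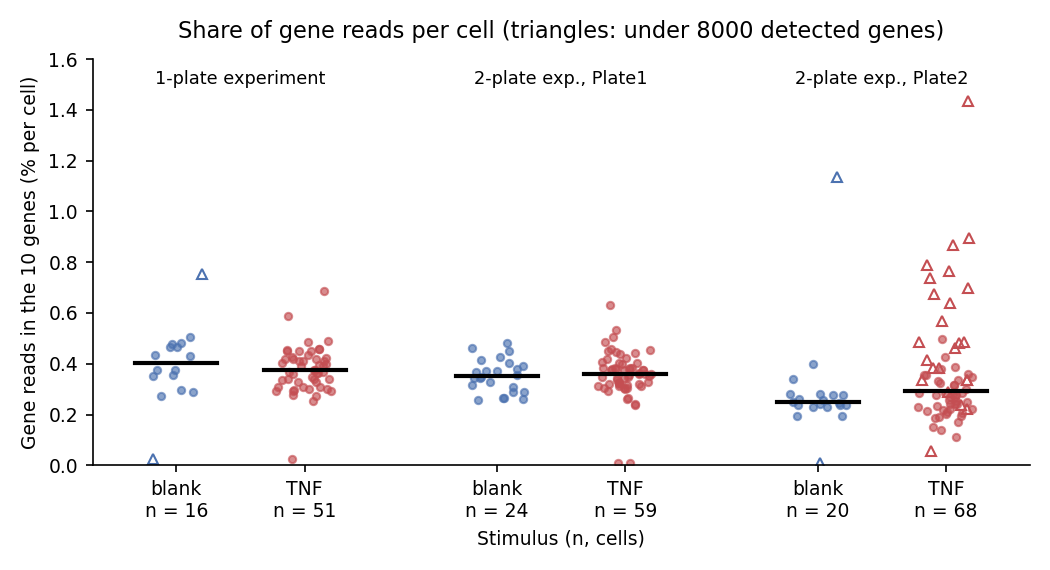
Percent of each cell's gene reads in the 10 members, by plate and stimulus; each point is 1 cell, the bar is the median, and open triangles are cells with fewer than 8000 detected genes. The medians of TNF and blank cells lie close together on each plate, and the 12 cells above 2 times their plate's median all have fewer than 8000 detected genes.

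Among the complex I members, mt-Nd1, mt-Nd2, mt-Nd3, mt-Nd5 and mt-Nd6 had medians in the same plate order, highest in the 1-plate experiment and lowest on Plate2 of the 2-plate experiment. mt-Nd1, a membrane subunit at the site where ubiquinone is bound, had median values of 1526, 1223 and 834 per cell in the 1-plate experiment, Plate1 and Plate2. mt-Nd2, one of the antiporter-like subunits of the proton-pumping arm, had medians of 345, 279 and 207. mt-Nd5, the antiporter-like subunit at the far end of that arm, had medians of 781, 646 and 523. mt-Nd6, a membrane subunit and the only protein-coding gene of the opposite (light) strand, had medians of 121, 93.2 and 73.4. mt-Nd4, another antiporter-like subunit, did not follow this order, with medians of 211, 247 and 191. The ranges of single cells overlapped for each of these members, for example 100.1 to 3434, 12.8 to 1982 and 19.7 to 4428 for mt-Nd1. mt-Nd3, a small membrane subunit, had medians of 1.86, 1.03 and 0 CPM. It was read in 47 of 67, 69 of 83 and 42 of 88 cells, with at most 13 reads in any cell, so its per-cell values are set largely by counting error (a counting coefficient of variation of 73.1% to 126%).

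mt-Co1, the catalytic subunit of complex IV that holds the site of oxygen reduction, had its lowest median in the 1-plate experiment. It had medians of 794 CPM in the 1-plate experiment (from 13.97 to 2324), 1076 on Plate1 (19.3 to 1902) and 941 on Plate2 (11.2 to 5331). As 1 of the 10 members, it supplied 21.7% of their reads in the 1-plate experiment, 29.8% on Plate1 and 35.04% on Plate2, while mt-Nd1 supplied 39.96%, 34.5% and 30.4%. The ratio of mt-Co1 reads to mt-Nd1 reads within a cell, in which the total drops out, had medians of 0.504, 0.829 and 1.14. Above the median of the 2-plate experiment, its plates pooled, lay 3 of 67 cells of the 1-plate experiment. Below the median of the 1-plate experiment lay 1 of 171 cells of the 2-plate experiment. The ranges of single cells overlapped, with 0.0701 to 1.463 in the 1-plate experiment and 0.497 to 2.545 in the 2-plate experiment. TNF cells had median ratios of 0.504, 0.869 and 1.17 and blank cells 0.520, 0.778 and 1.07, the same order of plates under either stimulus. The ratio of mt-Nd4 to mt-Nd1 reads was ordered the same way, with medians of 0.145, 0.209 and 0.236. The ratio of mt-Nd6 to mt-Nd5 reads differed less between plates, with medians of 0.157, 0.149 and 0.136. Between the experiments these differences have no replicate, and sequencing run, culture and animals cannot be told apart. Plate1 and Plate2 of the 2-plate experiment share a flow cell, per the labels, and their difference has no replicate either.

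**Figure D3:**
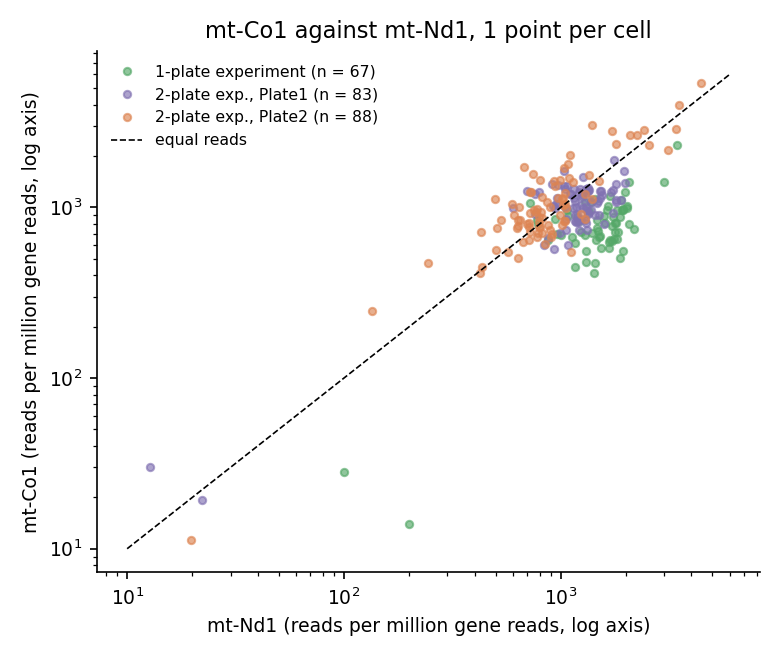
mt-Co1 against mt-Nd1 in CPM, both axes logarithmic, 1 point per listed cell and coloured by plate; the dashed line marks equal reads. Cells of the 1-plate experiment lie mostly below the line (median ratio 0.504) and cells of Plate2 lie around and above it (median ratio 1.14).

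No change of the members under TNF was detectable. Of the 10 members, 7 passed the low-count filter and 0 were called in TNF against blank (edgeR's quasi-likelihood test on counts summed per experiment, Benjamini-Hochberg adjusted over all genes), where 69 of 15479 genes, or 0.446%, were called. None of the 7 had an unadjusted p under 0.05, and DESeq2 also called 0 of them. The summed reads gave mt-Nd1 at 1436 CPM (TNF) against 1662 CPM (blank) in the 1-plate experiment, and 1089 against 1029 in the 2-plate experiment. For mt-Co1 the values were 763 against 947 and 1081 against 954. Both members were lower under TNF in 1 experiment and higher in the other, and the fitted log2 fold changes were -0.05 for each (SE 0.15 and 0.18). In the 1-plate experiment, 1 of the 16 blank cells, with 7152 detected genes, weighed heavily in the blank sums. It held 4633 of their 25275 mt-Nd1 reads and 3136 of their 14408 mt-Co1 reads. mt-Nd5 gave 771 against 760 and 601 against 558, a log2 fold change of 0.08 (SE 0.13). mt-Nd6 was higher in TNF cells in both experiments, at 125 against 116 and 86.2 against 73.8 CPM, but its log2 fold change of 0.19 (SE 0.15) was not past the threshold (edgeR adjusted p = 0.768). mt-Nd2 and mt-Nd4 gave -0.03 and 0.02. The 95% intervals of these 6 members all lay between log2 fold changes of -0.49 and 0.57, that is between 0.711 and 1.48 times the blank level. For mt-Nd3 the interval ran from -1.70 to 2.23, so a difference of several-fold in either direction was not detectable at its depth. In each experiment alone, where there is no test, the median log2 fold change of the 7 members was -0.12 for the 1-plate experiment and 0.16 for the other, beside medians of 0.05 over all genes in both.

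The response classes gave the same picture. Cells classed as oscillatory under TNF (20 and 36 cells in the 2 experiments) were compared with non-responsive blank cells (13 and 34 cells), a comparison in which 390 of 16586 genes, or 2.35%, were called and 0 of the 7 members were (edgeR; DESeq2 also called 0, and 0 had an unadjusted p under 0.05). The summed share of the 10 members was 0.369% in oscillatory cells against 0.409% in non-responsive blank cells of the 1-plate experiment, and 0.346% against 0.308% in the 2-plate experiment. The direction thus differed between the experiments for the sum. In the 1-plate experiment the per-cell medians were close, at 0.371% in oscillatory and 0.376% in non-responsive blank cells. The highest of these blank cells, at 0.754% with 7152 detected genes, held 10166 of the 49821 member reads of its group. In the 2-plate experiment the medians were 0.358% and 0.298%. The fitted log2 fold changes ran from -0.03 (mt-Co1, SE 0.18) to 0.22 (mt-Nd6, SE 0.15) over the 6 well-counted members, with adjusted p between 0.542 and 0.988 in edgeR. Transient TNF cells (25 and 51 cells) had summed shares of 0.361% and 0.331%. Against the same non-responsive blank cells, which the 2 comparisons share, 22 genes (0.133%) were called and 0 members, with log2 fold changes from -0.12 (mt-Co1) to 0.15 (mt-Nd6) over the 6 well-counted members and no unadjusted p under 0.05 in edgeR or call in DESeq2. Between oscillatory and transient TNF cells 33 genes (0.199%) were called and 0 members by edgeR or DESeq2, again with 0 at an unadjusted p under 0.05. Among the 6 well-counted members the highest value there was 0.15 for mt-Nd1 (95% interval -0.18 to 0.47) and the lowest -0.06 for mt-Nd4 (-0.40 to 0.28). Across these 3 class comparisons the intervals of the 6 members stayed between 0.683 and 1.49 times. Classes present in only 1 experiment with at least 5 cells were described without a test. In the 2-plate experiment, non-responsive TNF cells held 0.370% in summed reads (18 cells), unclear TNF cells 0.272% (16 cells), sustained TNF cells 0.363% (5 cells) and oscillatory blank cells 0.281% (5 cells). The per-cell ranges of these classes overlapped (0.0556% to 0.869% in non-responsive and 0.111% to 0.895% in unclear TNF cells). The sustained cells had a median of 0.252%, and the highest of them held 1.44%. Of the unclear cells, 12 were on Plate2, with 0.229% in summed reads, and 4 on Plate1, with 0.345%. Class and plate are thus mixed in these sums.

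In summed reads, most members had lower fitted values in G2M than in G1 cells, within the error. Cells assigned to G2M held 0.360% in summed reads against 0.374% in G1 cells of the 1-plate experiment (40 and 12 cells), and 0.307% against 0.348% in the 2-plate experiment (88 and 55 cells). The per-cell medians went the other way in the 1-plate experiment, with 0.392% in G2M and 0.310% in G1 cells. In the 2-plate experiment they were 0.310% and 0.349%. The highest G1 cell of the 1-plate experiment, at 0.754% with 7152 detected genes, held 10166 of the 46450 member reads of its group. S cells had the highest summed share in both experiments, 0.411% (15 cells) and 0.373% (28 cells), which was not tested. In G2M against G1, 109 of 15262 genes, or 0.714%, were called, and 0 of 7 members in edgeR or DESeq2, with 0 at an unadjusted p under 0.05 in either tool. With sums per plate 1 member, mt-Nd6, had an unadjusted p under 0.05 (edgeR p = 0.0326, adjusted p = 0.332, log2 fold change -0.36). mt-Nd6 had the lowest value, with 114 against 131.5 CPM in the 1-plate experiment and 72.6 against 95.7 in the 2-plate experiment. Its log2 fold change was -0.31 (SE 0.17, 95% interval -0.71 to 0.09, edgeR adjusted p = 0.568). mt-Nd4, mt-Co1 and mt-Nd5 followed with -0.22, -0.20 and -0.19, mt-Nd2 with -0.10 and mt-Nd1 with -0.04. Values were below 0 for 6 of the 7 members, with a median of -0.19 beside 0.03 over all genes tested. With only the cells that had at least 8000 detected genes the median was -0.00173 and the lowest value -0.25 (mt-Nd6). Spike-in totals as library sizes turned these values positive, from 0.43 (mt-Nd6) to 0.78 (mt-Nd3), with a median of 0.56 beside a median of 0.76 over all genes. On that scale the medians of all genes were 0.42, 0.56, 0.41 and 0.13 in the other 4 comparisons, in the order given above. The members' medians there were 0.42, 0.69, 0.42 and 0.25.

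**Figure D4:**
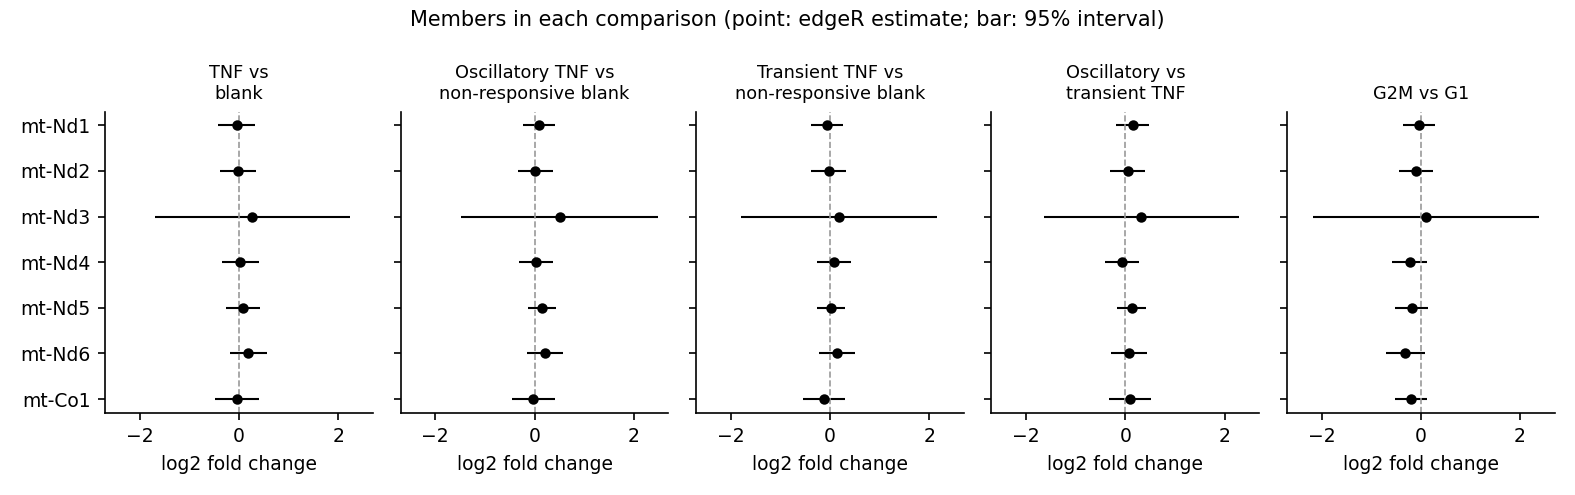
Log2 fold change (x axis) of the 7 tested members in each of the 5 comparisons, with the edgeR estimate as a point and its 95% interval as a bar; the dashed line marks 0. All 35 intervals include 0, and those of mt-Nd3 are several times as wide as the rest.

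The relation between the share and the number of detected genes differed between plates. Across cells, Spearman's rho between the share of the 10 members and the number of detected genes was 0.0997 in the 1-plate experiment (67 cells), 0.0296 on Plate1 (83 cells) and -0.474 on Plate2 (88 cells). These are descriptions, since share and detected genes come from the same library. On Plate2 the value was -0.584 over 68 TNF cells and 0.164 over the 20 blank cells, of which only 2 had fewer than 8000 detected genes. Among the cells of that plate with at least 8000 detected genes it was -0.148 (62 cells). The 24 TNF cells of Plate2 below 8000 had a median share of 0.483% (0.0556% to 1.44%), and the 44 at or above it 0.264% (0.111% to 0.496%). The cells below 8000 also had fewer reads, with medians of 380389 and 1851366 gene reads. Detected genes were also counted after each cell's gene reads outside the members were thinned to 150000, with the share left as it was. Against this count rho was 0.344, 0.164 and -0.456 on the 3 plates. The 1-plate experiment and Plate2 of the 2-plate experiment had values of opposite sign with and without thinning. With genes counted as detected at 5 or more reads, rho was -0.0717, 0.00489 and -0.456 on the 3 plates. The sign in the 1-plate experiment thus depended on the count used. Every well-counted member had the higher median in the TNF cells of Plate2 below 8000. The medians were 1188 against 799 CPM for mt-Nd1, 346 against 167 for mt-Nd2 and 376 against 173 for mt-Nd4. For mt-Nd5 they were 928 against 448, for mt-Nd6 148 against 54.5, and for mt-Co1 1624 against 911. The 18 blank cells of Plate2 with at least 8000 detected genes had a median share of 0.249%, near the 0.264% of the TNF cells cut the same way. The spike-in percent moved with the share on this plate as well (rho 0.498), and the part of RNA content or quality in the pattern was not tested.

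**Figure D5:**
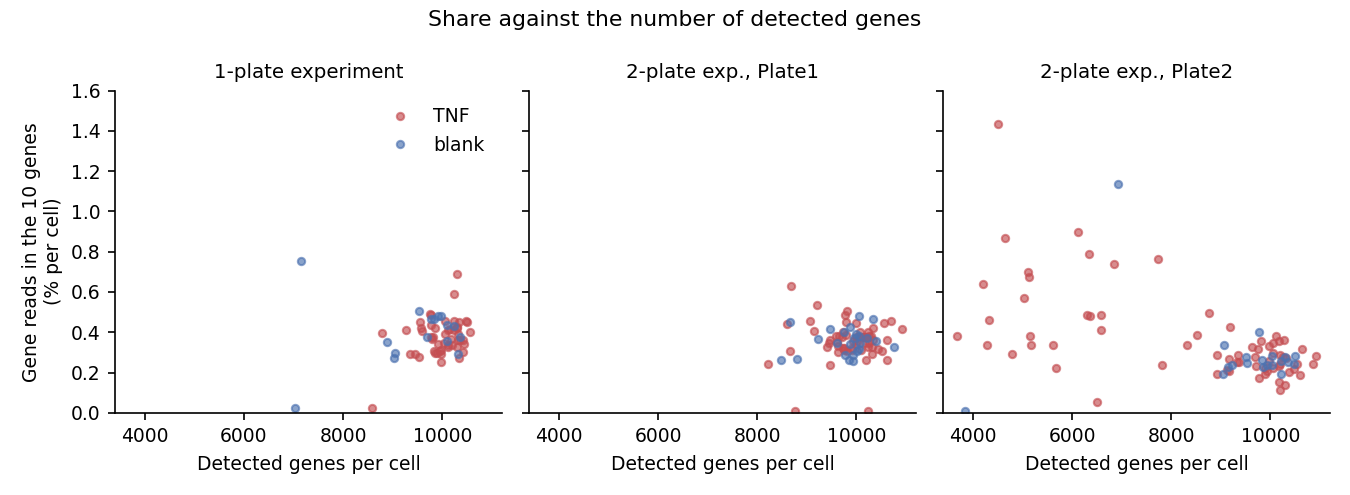
Percent of gene reads in the 10 members (y axis) against the number of detected genes (x axis), 1 point per listed cell, in a panel for each plate, coloured by stimulus. Plate2 of the 2-plate experiment holds 26 of the 28 cells below 8000 detected genes, and most of those lie above its median of 0.279%.

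Single cells at the extremes were of different kinds. Under 20% of their plate's median share lay 6 cells, 2 on each plate, with 30 to 626 member reads each. These bounds were set after the values were seen. The 2 lowest held 0.00815% (59 of 724001 gene reads, a transient TNF cell of Plate1 with 8763 detected genes) and 0.00842% (30 of 356231, a non-responsive blank cell of Plate2 with 3836). Another, at 0.0111%, had 10244 detected genes, so low shares were found at high and low complexity alike. All 6 were assigned to G2M, the phase of 128 of the 238 cells, and 4 were TNF cells. Above 2 times their plate's median lay 12 cells, of which 11 were on Plate2 of the 2-plate experiment. Each of these 12 had fewer than 8000 detected genes (4207 to 7735), 10 were TNF cells and 4 were assigned to G2M. The highest cell, at 1.44%, was a sustained TNF cell with 4504 detected genes, and the next, at 1.14%, was a non-responsive blank cell with 6933.

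The members varied together across cells, some pairs more closely than others. The mean of the within-plate Spearman correlations of CPM was highest for mt-Nd5 with mt-Nd6 (0.724), mt-Nd4 with mt-Nd6 (0.714) and mt-Nd1 with mt-Nd2 (0.695). mt-Co1 was most like mt-Nd4 (0.592) and mt-Nd5 (0.555), and less like mt-Nd1 (0.426) and mt-Nd2 (0.419). Pairs with mt-Nd3 reached at most 0.281, at its few reads. mt-Nd5 and mt-Nd6 overlap in the RefSeq table, and they are transcribed from opposite strands. In libraries that do not mark strand, reads from the overlap cannot be told apart. The part of the overlap in the correlation of this pair was not tested. All pairs without mt-Nd3 had a higher correlation on Plate2 of the 2-plate experiment than the mean of the other plates. The points share library and depth, so the values are descriptions. Among 5388 other genes with a read in at least 90% of cells, the pattern most like the summed share belonged to ENSMUSG00000064370 (mean within-plate Pearson r of log2 values 0.923) and ENSMUSG00000064339 (0.850). The genes next in rank had 0.777 and 0.456. The lowest values belonged to ENSMUSG00000003308 (-0.359) and ENSMUSG00000005354 (-0.351), and the median gene had -0.0356. Genes of the mitochondrial genome could not be left out of this ranking, because identifiers and names could not be matched. The genes at its top may therefore be other genes of that genome.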

How the data were processed

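The authors deposited raw read counts per gene and cell (Smart-Seq2 of picked cells, Nextera libraries, per the labels), made with SAMtools, Subread 1.5.0 and featureCounts, per the submitters' processing notes. The sources used here do not name the genome build, annotation, strand setting or handling of multiply placed reads. The authors' deposited cell tables supplied stimulus, class and phase. The libraries carry no molecular identifiers, so floors and intervals cover counting error only. Columns were matched to samples by plate and well, and 357 columns of no sample were not used. No comparison uses the 44 samples that the cell tables do not list.

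The 10 members, the lists and the comparisons were chosen with earlier results of these data known. Gene lists and cell type markers had been set by symbol. The RefSeq table held 0 Ensembl identifiers, so none of these lists could be analysed, and it was used only for the order of neighbouring genes. No sequence of a member was used here. All members are named, and of the genes most like them the 2 highest and 2 lowest by mean within-plate correlation.

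Shares are a member's reads over all gene reads of a cell, spike-ins (92 features) left out. Cells are not replicates. For tests, counts were summed per experiment and group with at least 5 cells (4, 10 and 6 sums for stimulus, class and phase, with 1, 2 and 2 residual degrees of freedom), so the experiment is the replicate (n = 2). The p-values measure how far a difference between groups varies between these 2 experiments, weighed with the spread of other genes. The level difference between the experiments is taken out by the term for the experiment. The labels do not say whether the experiments came from separate animals, so this variation may be technical. edgeR 4.0.16 in R 4.3.3 was used with filterByExpr defaults, TMM scaling, a term for the experiment and the two-sided quasi-likelihood test, adjusted by Benjamini-Hochberg over all genes tested, at 0.05. The 2 experiments were kept as a block because the labels place them on separate flow cells. Standard errors are the absolute log2 fold change over the square root of the F statistic. The procedure was tested on simulated counts with planted changes of several-fold, larger than those of the well-counted members. That test does not cover changes as small as theirs. Alternatives were DESeq2 1.42.0, other scalings and filters, sums per plate, plates left out and cells with at least 8000 detected genes. Correlations, medians and ratios over cells are descriptions, computed in Python 3.11.15.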

Additional observations from a re-analysis of the deposited data

Results flagged for a closer look

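Among groups of 4 to 10 cells, 4 were examined for a single value far from the rest, and chance marks about 1 group in 20. In the 5 sustained TNF cells of the 2-plate experiment, the highest cell had 1.44% of its gene reads in the 10 members, while the other 4 lay between 0.243% and 0.379%. That cell had 4504 detected genes, and it is the highest of all 238 listed cells.

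Of the 44 samples outside the cell tables, which no comparison used, 5 exceeded the highest listed cell, and all 5 were on the plate of the 1-plate experiment. They were the wells F10 (13.1% of gene reads in the 10 members), D12 (3.64%), F12 (2.68%), G10 (2.60%) and B12 (1.93%). Their gene reads numbered 132526, 6013, 15092, 540902 and 43791, and their detected genes 1878, 782, 1202, 3607 and 1922, below those of every listed cell. The member that led differed between them. Well F10 had 51120 CPM of mt-Nd1 and 38230 of mt-Nd5, and well F12 had 26640 of mt-Nd5 and 66.3 each of mt-Nd1 and mt-Co1. Well D12 had 17460 of mt-Nd2 and 12140 of mt-Nd1. In all 5 wells mt-Nd4l, mt-Co2 and mt-Co3 were at 0. What these wells held is not given in the labels.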

How the results depend on the processing

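No member was called in any comparison under any alternative with a test; the smallest adjusted p was 0.332 (edgeR; mt-Nd6, G2M against G1, sums per plate, the only member and alternative with an unadjusted p under 0.05). Of 485 member values under the alternatives, 62 had the opposite sign to the reported log2 fold change, and neither value of any such pair was called. DESeq2, relative log expression factors and library sizes without the members turned none. Where signs turned, the cause was not tested.

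Comparisons are named by their first group below, with "oscillatory" and "transient" each set against non-responsive blank. With spike-in totals as library sizes, TNF against blank gave 0.35 for mt-Nd1, 0.37 for mt-Nd2 and 0.35 for mt-Co1. Oscillatory gave 0.58 for mt-Co1, and transient gave 0.38, 0.40 and 0.35 for mt-Nd1, mt-Nd2 and mt-Co1. Oscillatory against transient TNF gave 0.092 for mt-Nd4. G2M against G1 gave 0.70, 0.64, 0.52, 0.56, 0.43 and 0.56 for mt-Nd1, mt-Nd2, mt-Nd4, mt-Nd5, mt-Nd6 and mt-Co1. With sums per plate, TNF against blank gave 0.027, 0.022 and 0.066 for mt-Nd1, mt-Nd2 and mt-Co1, oscillatory 0.13 for mt-Co1, transient 0.027 and 0.039 for mt-Nd1 and mt-Nd2, and G2M against G1 -0.24 for mt-Nd3. With at least 8000 detected genes, the values were -0.0085 (mt-Nd4, TNF), -0.014 and 0.029 (mt-Nd2 and mt-Co1, oscillatory), -0.044 (mt-Nd5, transient), and 0.13 and 0.0089 (mt-Nd1 and mt-Co1, G2M). Without composition factors they were -0.045 and -0.038 (mt-Nd2 and mt-Nd4, oscillatory) and -0.016 (mt-Nd2, oscillatory against transient TNF). For mt-Nd2 under TNF, no filter gave 0.0072 and the stricter filter 0.00090. With no replicate block, mt-Co1 in oscillatory cells gave 0.039, and the block changed no call of a member.

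Leaving out a plate or experiment in turn (a value with no test where 1 sum per group was left) gave the following ranges where a sign turned. Under TNF they were -0.23 to 0.13 (mt-Nd1), -0.15 to 0.093 (mt-Nd2), -0.12 to 0.16 (mt-Nd4), -0.0019 to 0.16 (mt-Nd5) and -0.33 to 0.23 (mt-Co1). For oscillatory they were -0.11 to 0.28 (mt-Nd1), -0.14 to 0.17 (mt-Nd2), -0.14 to 0.17 (mt-Nd4) and -0.37 to 0.32 (mt-Co1). For transient they were -0.25 to 0.14 (mt-Nd1), -0.20 to 0.15 (mt-Nd2), -0.0040 to 0.59 (mt-Nd3), -0.0046 to 0.18 (mt-Nd4), -0.10 to 0.14 (mt-Nd5) and -0.37 to 0.15 (mt-Co1). They were -0.040 to 0.11 for mt-Nd2 in oscillatory against transient TNF, and -0.14 to 0.055 (mt-Nd1) and -0.76 to 0.85 (mt-Nd3) in G2M against G1.

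Of the descriptions, the correlation of the share with detected genes on Plate2 was 0.164 in blank cells alone, and mt-Co1 supplied 21.7% of the members' reads in the 1-plate experiment against 29.9% over all cells. With 396, 1, 4 and 0 reads, mt-Nd3, mt-Co2, mt-Co3 and mt-Nd4l had too few for a precise fold change; why their counts were low was not tested.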

Other observations

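Over the 44 samples outside the cell tables, the share of gene reads in the 10 members ran from 0% to 13.1% with a median of 0.363%, near the median of 0.346% in the listed cells. Their gene reads ran from 1805 to 1130586, with a median of 115918. The labels give no stimulus or class for them, so no comparison was made.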
